A study of Mus musculus with 4 samples.

Results

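MITF is the transcription factor that sets the identity of melanocytes, the pigment cells of the skin. Besides the pigment genes it has been reported to control genes of general cell biology, and 9 of these were followed here at the level of their RNA. They were Cdk2, Tbx2 and Diaph1 (cell cycle, growth and cell shape), Bcl2 and Birc7 (survival), Dicer1 (microRNA processing), Hif1a and Ppargc1a (response to low oxygen and mitochondrial metabolism) and Apex1 (DNA repair and redox control). MITF binds short DNA elements called E-boxes, CATGTG and CACGTG, as a dimer. They were taken by name and are 9 of the 22835 genes in the deposited table of exon levels. They contribute 128 of the 226463 exons that could be assigned to a gene.

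Each of the 4 conditions was sequenced as 1 library. Wild-type mouse embryonic fibroblasts (MEFs) were at passage 3, and their values are those of the library labelled MEF. The MEF column of the study's supplementary table holds other numbers than this library, so every wild-type value below describes the deposited column of that name. Mitf knock-in MEFs were at passage 5 and were either left untreated, called Dox (-), or grown with Dox for 6 days, called Dox (+). Both knock-in cultures carry the M2rtTA activator at the ROSA26 locus and, downstream of Col1a1, a Dox-responsive Mitf transgene of the melanocyte isoform. They descend from a single correctly targeted clone of KH2 embryonic stem cells and were prepared from chimeric embryos, while the wild-type MEFs lack both alleles. Chimeric embryos also hold cells of the host blastocyst. The paper states that a constitutive mCherry transgene and puromycin resistance allowed the transgenic cells to be separated from the host cells. Its methods for RNA sequencing do not say whether the sequenced cultures were purified in this way. Primary mouse melanocytes (PMel, passage 5) were not analysed here. Levels are RPKM, reads per kb of exon corrected for library depth. Low values returned whole reads at depths of 45000000 reads in the wild-type MEFs and Dox (-) and 44000000 in Dox (+). With 1 library per condition no difference has a replicate check and no p-value is given. The 95% intervals are exact intervals of the read ratio and cover counting error only. They are too narrow where a read that spans a junction was counted on both exons.

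The labels were checked first. The highest exon of Mitf had 1.52 RPKM in wild-type MEFs, 30.8 RPKM in Dox (-) and 1544 RPKM in Dox (+). The summed level of 8 macrophage markers was 51.4 RPKM in wild-type MEFs, 13340 RPKM in Dox (-) and 474 RPKM in Dox (+), and 8 of 8 were more than 4-fold lower in Dox (+) than in Dox (-). The 8 fibroblast markers summed to 30290, 59070 and 19600 RPKM in the same order, and 4 of them (Col1a1, Col1a2, Col3a1 and Lum) were called lower in Dox (+) than in Dox (-) at that fold. The 8 melanocyte markers summed to 4.99, 15.0 and 274.5 RPKM. Tyrp1 and Dct were at 0 in wild-type MEFs and Tyr was at 0 in Dox (-). Only 4 of the 8 exceeded 10 RPKM in either knock-in library, and 3 of them (Tyrp1, Mlana and Trpm1) passed the same fold upward. Sox10 alone went down after Dox, with 148 reads against 636, a ratio of 0.238 (0.198 to 0.285). Dct moved little on its highest exon, from 0.798 to 0.900 RPKM. The 6 keratinocyte markers summed to 65.7, 9.43 and 32.2 RPKM, with Krt5 at 0 in wild-type MEFs, and the 6 Schwann cell markers to 12.8, 88.0 and 22.4 RPKM, with Foxd3 at 0 in wild-type MEFs. The macrophage, fibroblast and Schwann cell sums were thus highest in Dox (-). The part of these cells in the differences below was not tested. In such bulk RNA, fewer cells of a type and less RNA per cell cannot be told apart.

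Whether induction of Mitf was accompanied by a change in the 9 genes was read from Dox (+) against Dox (-). Apex1, Diaph1 and Ppargc1a had higher levels in Dox (+), and Tbx2 had lower levels. Bcl2 was lower on its last exon only, with a ratio of 1.01 on its first exon. Cdk2, Hif1a and Dicer1 were lower by 1.15-fold or less over their pooled exons, and Birc7 was close to the detection limit. The level of a gene is the highest RPKM among its exons unless stated otherwise, as in the study's methods. To be called, a gene had to exceed 10 RPKM in 1 or both of the libraries compared and differ by more than 4-fold. At that threshold 0 of the 9 genes were called, against 7.05% of the 13307 genes above 10 RPKM, split into 1.64% upward and 5.41% downward. Only 6 of the 9 genes (Cdk2, Tbx2, Diaph1, Hif1a, Dicer1 and Apex1) reached 10 RPKM and could be called. At a 2-fold threshold 1 of the 9, Apex1, was called as higher, against 10.8% of all genes called higher and 11.1% called lower. The median log2 fold change of the 9 genes, after adding 1 RPKM to each level, was -0.115, with 3 higher and 6 lower, while the median of the 13307 genes was 0.226. Of the 13307 genes, 62.6% were higher in Dox (+), and the median log2 ratio was 0.264 over genes above 10 RPKM in both libraries. Folds are therefore also given relative to the median gene where this matters.

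**Figure D1:**
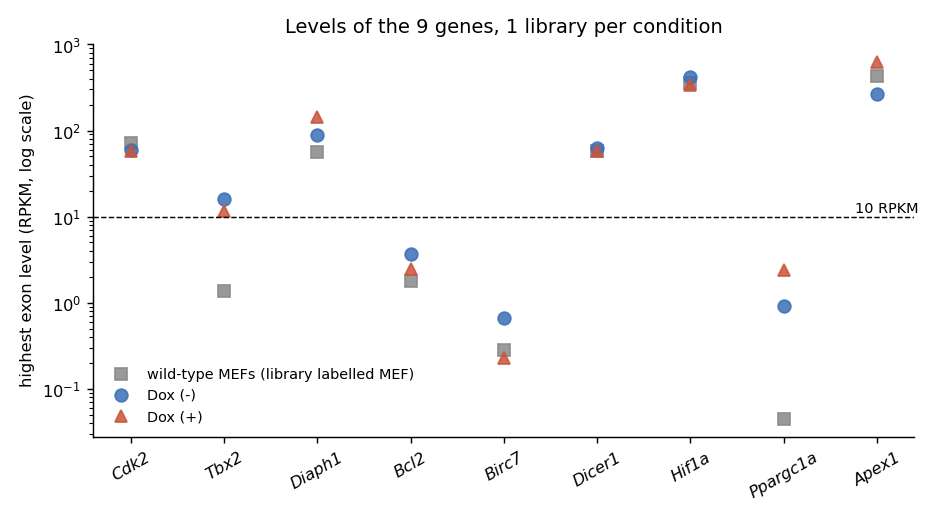
Level of each of the 9 genes (highest exon, RPKM, log scale) in wild-type MEFs (squares), Dox (-) (circles) and Dox (+) (triangles), 1 library each, so no error bars are drawn. The dashed line is the threshold of 10 RPKM. Bcl2, Birc7 and Ppargc1a lie below the line in all 3 libraries, Tbx2 lies below it in wild-type MEFs only, and Apex1 and Hif1a are the highest.

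Apex1 encodes the endonuclease that cuts DNA at abasic sites during base excision repair and also regulates transcription factors through redox. Its exons span chromosome 14 from 50924968 to 50927139 (mm10, plus strand). The highest exon, a short coding stretch of 40 bp that is part of the longest form of the first exon, had 425.6 RPKM in wild-type MEFs, 267.8 RPKM in Dox (-) and 628.4 RPKM in Dox (+). Over its 4 non-overlapping exons the level was 159 RPKM in wild-type MEFs, 88.6 RPKM in Dox (-) and 164.5 RPKM in Dox (+). Dox (-) was the low library by both measures. In reads, Dox (+) had 10218 and Dox (-) 5629, a ratio of 1.86 (95% interval 1.80 to 1.92), or 1.66 relative to the median gene. Each of the 4 exons was higher in Dox (+), from 1.71-fold on the last to 2.33-fold on the first. Against wild-type MEFs, Dox (+) was 1.04-fold higher (1.01 to 1.06) and Dox (-) 1.79-fold lower (1.74 to 1.85). The last exons of Apex1 overlap exons of Pip4p1, and without them the ratio of Dox (+) to Dox (-) was 2.13 (2.01 to 2.26) and that of Dox (+) to wild-type MEFs 1.24 (1.18 to 1.30). On the highest exon Dox (+) was 1.48-fold above wild-type MEFs, so how far these libraries differed depended on the exons read.

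The region around the start of Apex1 is shown because Apex1 was the only one of the 9 genes called at a 2-fold threshold between Dox (+) and Dox (-) and because its promoter holds several E-boxes. The sequence is from RefSeq (GRCm38.p6, the mm10 assembly), chr14:50924879-50924978 on the plus strand, and runs from 70 bases before the RefSeq start to 30 bases after it. Capitals mark each CACGTG.
Apex1: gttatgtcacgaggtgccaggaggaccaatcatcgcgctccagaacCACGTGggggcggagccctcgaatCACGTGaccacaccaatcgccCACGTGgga
The number of CACGTG in this window was 3, and the middle match is also the longer palindrome TCACGTGA. Among 32851 RefSeq windows of the same kind, from 250 bases before to 50 bases after a start, 7.15% held at least 1 CACGTG, 0.974% held TCACGTGA and 29 windows, or 0.0883%, held 3 or more CACGTG. Such a match is a description of the letters and not evidence of binding.

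Windows were found for 7 of the 9 genes, all but Tbx2 and Diaph1, and both strands were searched for CACGTG and for CATGTG, whose reverse complement is CACATG. At least 1 of the E-boxes was present in 4 of the 7 windows, against 20.4% of all windows. The 3 other matches are shown in lines below, with 12 bases on either side and the E-box in capitals, since they allow the genes with and without a higher level to be compared.
Hif1a: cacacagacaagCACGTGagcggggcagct
Ppargc1a: gctgttggaaagCACATGatactgtacata
Birc7: cgctgcaaagagCATGTGgctgccctggcc
The Hif1a match lies at chr12:73907720-73907749 on the plus strand and begins 135 bases before the RefSeq start. The Ppargc1a match lies at chr5:51567868-51567897 on the minus strand and begins 160 bases before the start. The Birc7 match lies at chr2:180928968-180928997 on the plus strand and begins 43 bases before the start. The windows of Bcl2, Cdk2 and Dicer1 held neither E-box. The longer element TCATGTGA was found in 0 of the 7 windows and in 0.986% of all. Of the 4 genes with an E-box, Apex1 and Ppargc1a had higher levels after Dox and Hif1a had not, while Birc7 had too few reads to tell. Diaph1, also higher after Dox, could not be compared.

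Diaph1 encodes mDia1, a formin that elongates actin filaments. The gene is on chromosome 18, from 37843601 to 37935476, minus strand. Its highest exon had 56.2 RPKM in wild-type MEFs, 88.4 RPKM in Dox (-) and 141.8 RPKM in Dox (+). Over 28 non-overlapping exons the levels were 19.6, 33.6 and 54.7 RPKM, so the libraries had the same order in both measures. On all 28 exons Dox (+) exceeded Dox (-), and the ratio of the 13949 to the 8757 reads was 1.63 (1.59 to 1.67), or 1.46 relative to the median gene. The 28 exons were also higher in Dox (+) than in wild-type MEFs, with a ratio of 2.78 (2.70 to 2.88) over all of them. Dox (-) was 1.71-fold above wild-type MEFs (1.65 to 1.77) without Dox.

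The ratio along Diaph1 was not even. Its first exon, from 37935202 to 37935476, had 0 reads in wild-type MEFs, 9 in Dox (-) and 51 in Dox (+), a ratio of 5.80 (2.83 to 13.4) of Dox (+) to Dox (-). Its last exon, from 37843601 to 37845498, of which 1743 of 1898 bp are 3′ untranslated, had 1618, 2434 and 3195 reads, a ratio of 1.34 (1.27 to 1.42). The exon after the first, from 37911169 to 37911271, had the same numbers of reads as the first in each library. Whether the same reads were counted on both was not tested. The other exons lay between the ratios of the first and the last, and the median over exons was 1.77.

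Cdk2 encodes the kinase that acts with cyclins E and A at the start and during DNA synthesis. Its exons span chromosome 10 from 128697939 to 128705030 (minus strand). Its highest exon had 70.9 RPKM in wild-type MEFs, 59.7 RPKM in Dox (-) and 57.5 RPKM in Dox (+). Over 7 exons its reads numbered 3454, 2983 and 2565, so that the levels of the 3 libraries stayed within 1.32-fold of each other. All 7 of these exons were lower in Dox (+) than in Dox (-), with a pooled difference of 1.14-fold (1.08 to 1.20). That of the 6 exons before the last was 1.06-fold, with an interval of 0.993 to 1.14 that includes no difference, and that of the last exon was 1.26-fold (1.16 to 1.37). The outermost first exon, from 128704712 to 128705030, is not among the 7, since its values did not return whole reads. Its level went the other way, with 7.97 RPKM in wild-type MEFs, 7.78 RPKM in Dox (-) and 10.1 RPKM in Dox (+).

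Tbx2 encodes a T-box repressor known for restraining senescence through genes such as Cdkn1a. The gene is on chromosome 11, from 85832551 to 85841948, plus strand. Its highest exon had 1.36 RPKM in wild-type MEFs, 16.2 RPKM in Dox (-) and 11.5 RPKM in Dox (+). Both knock-in libraries thus stood above wild-type MEFs, and Tbx2 was the only gene of the 9 past the 4-fold threshold in any comparison. It was called higher in Dox (+) than in wild-type MEFs, where 9.95% of 12941 genes were called, 6.55% as higher and 3.4% as lower. It was also called higher in Dox (-) than in wild-type MEFs, where 9.47% of 13234 genes were called, 8.26% as higher and 1.21% as lower. At a 2-fold threshold Tbx2 and Diaph1 were called higher in Dox (+) than in wild-type MEFs, against 20.2% of all genes. Over 7 exons it had 17 reads in wild-type MEFs, 422 in Dox (-) and 222 in Dox (+). Dox (-) was 24.8-fold (15.3 to 43.0) and Dox (+) 13.4-fold (8.15 to 23.3) above wild-type MEFs. From Dox (-) to Dox (+) the level was 1.86-fold lower (1.58 to 2.20). The call rests on the highest exon, since the level over all exons was 2.59 RPKM in Dox (-) and 1.39 RPKM in Dox (+), under the threshold.

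Tbx3, the closest relative of Tbx2, was also higher in both knock-in libraries. On its highest exon it had 1.32 RPKM in wild-type MEFs, 16.5 RPKM in Dox (-) and 19.8 RPKM in Dox (+). There the knock-in libraries stood in the opposite order to that of Tbx2. Over all exons Tbx3 had 1062 reads in Dox (-) and 952 in Dox (+). The ratio was 0.917, with an interval of 0.839 to 1.002 that includes equal levels. Of the 8 T-box genes listed, Tbx2 included, 4 were above 10 RPKM in Dox (+) or Dox (-) and 0 passed the 4-fold threshold between these. Tbx15, the highest, had 309 RPKM in wild-type MEFs, 122 RPKM in Dox (-) and 98.6 RPKM in Dox (+). Tbx18 had 6.50, 20.1 and 12.2 RPKM. Cdkn1a, which encodes the CDK2 inhibitor p21, had 192 RPKM in wild-type MEFs, 1019 RPKM in Dox (-) and 1602 RPKM in Dox (+). Between the knock-in libraries its reads differed 1.38-fold (1.36 to 1.39).

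Bcl2 encodes the founding member of the proteins that protect mitochondria from apoptotic permeabilization. Its 2 exons lie on chromosome 1 between 106538178 and 106714274 (minus strand). It was expressed at a low level, 1.78 RPKM in wild-type MEFs, 3.69 RPKM in Dox (-) and 2.46 RPKM in Dox (+) on its highest exon, so it was not eligible for a call. The exons gave different answers. The first exon, from 106712305 to 106714274, holds most of the coding sequence and had 89 reads in wild-type MEFs, 195 in Dox (-) and 193 in Dox (+), a ratio of 1.01 (0.825 to 1.24) between the knock-in libraries. The last exon, from 106538178 to 106543398, is 3′ untranslated over 5089 of its 5221 bp and overlaps an exon of D630008O14Rik. It had 419, 868 and 566 reads, a ratio of 0.667 (0.599 to 0.742). Both knock-in libraries were above wild-type MEFs on both exons, by 1.38-fold to 2.22-fold.

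Birc7 encodes livin, an inhibitor of apoptosis protein found in melanoma. The gene is on chromosome 2, from 180929023 to 180934010, plus strand. Its 6 exons together had 3 reads in wild-type MEFs, 14 in Dox (-) and 3 in Dox (+). The ratio of Dox (+) to Dox (-) was 0.219, with an interval of 0.0404 to 0.785 that does not include equal levels but rests on these few reads. In Dox (+) the number of reads did not exceed the floor of 3 at which a gene is told from 0, so expression after induction was not detectable at this depth.

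Dicer1 encodes the RNase that cuts microRNAs from their hairpin precursors. Its exons span chromosome 12 from 104687742 to 104751952 (minus strand). Its highest exon had 58.5 RPKM in wild-type MEFs, 62.3 RPKM in Dox (-) and 57.4 RPKM in Dox (+), which differ by little. Behind this similarity the parts of the gene diverged. Over the 26 exons before the last, Dox (+) had 7082 reads and Dox (-) had 7170, a ratio of 1.01 (0.977 to 1.04). On the last exon, 3′ untranslated over 3854 of its 4017 bp, Dox (+) had 1183 reads and Dox (-) had 1988, so that Dox (+) was 1.64-fold lower (1.53 to 1.77). The wild-type MEFs had 1172 reads on that exon, close to Dox (+), but 5042 reads on the exons before it. Of the 27 exons, 15 were higher and 12 lower in Dox (+) than in Dox (-), from 0.609-fold to 1.41-fold.

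Hif1a encodes the oxygen-regulated subunit of the hypoxia-inducible factor, whose protein is controlled mainly by degradation. The gene is on chromosome 12, from 73901375 to 73947530, plus strand. Its highest exon had 356 RPKM in wild-type MEFs, 419 RPKM in Dox (-) and 335.8 RPKM in Dox (+), the highest levels of the 9 genes beside those of Apex1. Over 16 exons its reads numbered 25768, 33223 and 28336. Dox (+) was 1.15-fold below Dox (-) (1.13 to 1.17), with 13 exons lower and 3 higher, and 1.31-fold below it on the last exon (1.27 to 1.36). The E-box shown above lies before the start of a downstream first exon, from 73907904 to 73908324, which had 5.70, 11.5 and 10.5 RPKM. The outermost first exon, from 73901375 to 73901498, had 3.05, 4.48 and 2.57 RPKM. Both were far below the coding exons in the middle of the gene, among them the exon from 73928214 to 73928298 with 171, 329 and 335.8 RPKM. Exons of Gm15283 and Gm49321 overlap 5 of the 19 exons listed, and without them Dox (+) over Dox (-) was 0.851.

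Ppargc1a encodes PGC-1α, the coactivator that drives mitochondrial biogenesis. The 12 exons listed span chromosome 5 from 51454250 to 51553922 (minus strand). These had 8 reads in wild-type MEFs, 73 in Dox (-) and 146 in Dox (+), and the highest exon had 0.0441, 0.911 and 2.39 RPKM. Its level was thus far below the 10 RPKM at which a gene can be called, in every library. The ratio of Dox (+) to Dox (-) was 2.05 (1.53 to 2.75), or 1.83 relative to the median gene, and 91.7% of the 14319 genes with at least 50 reads in both libraries had a lower ratio. The 11 exons before the last held 92 reads in Dox (+), 28 in Dox (-) and 0 in wild-type MEFs. Dox (+) was 3.36-fold above Dox (-) there (2.18 to 5.33), and 31.4-fold above wild-type MEFs when the floor of 3 reads is put in place of their 0. For 92 reads against 0, without the floor, the exact interval of the ratio has a lower limit of 25 and no upper limit. The last exon, 3′ untranslated over 3933 of its 4034 bp, had 54 reads in Dox (+) against 45, a ratio of 1.23 with an interval of 0.811 to 1.87 that includes equal levels. The only reads of wild-type MEFs, 8, were on that exon. The first exon listed, from 51553735 to 51553922, had 0 reads in all 3 libraries, and the exon at the RefSeq start behind the E-box above was not among those listed.

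In the 8 genes other than Birc7 the last exon had a lower ratio of Dox (+) to Dox (-) than the exons before it. The size of this step was 0.731 for Dicer1 on the log2 scale, 0.374 for Diaph1, 0.246 for Apex1, 0.245 for Hif1a and 0.243 for Cdk2, the 5 genes with at least 50 reads in each part of each library and at least 3 exons. The same step was found in most genes. Over 9913 genes that met these limits its median was 0.247, with quartiles of 0.0924 and 0.413, and 84.9% of genes were above 0. Cdk2, Hif1a and Apex1 therefore lay at the median gene, with 49.2% to 49.7% of genes below them. Diaph1 had 70.2% and Dicer1 94.8% of genes below it. Against the median ratio of all genes on last exons, 1.04, the last exon of Dicer1 was at 0.584 and that of Bcl2 at 0.64, and against the median on exons before the last, 1.17, the other part of Dicer1 was at 0.863 and that of Bcl2 at 0.865. How reads were spread along transcripts also differed between the libraries. The log2 ratio of the level before the last exon to the level of the last exon was taken in each library. Its median was 0.119 over 10032 genes in wild-type MEFs, 0.331 over 10804 in Dox (-) and 0.603 over 10163 in Dox (+). The part of this spread in the steps of single genes was not tested.

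**Figure D2:**
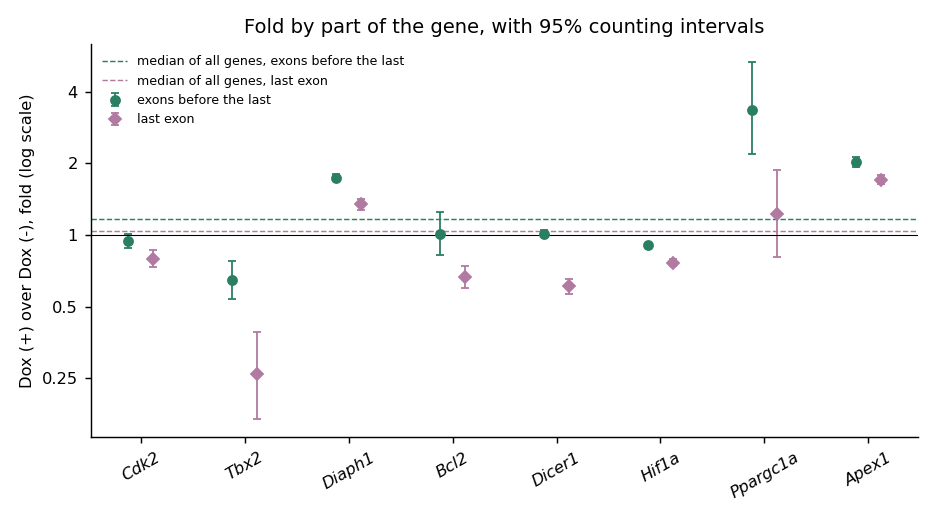
Ratio of Dox (+) to Dox (-) (log scale) over the exons before the last exon (circles) and on the last exon (diamonds) for 8 of the 9 genes, with 95% counting intervals. Birc7 is left out for its 3 and 14 reads. Dashed lines are the medians of all genes for each part, 1.17 and 1.04, and the diamond lies below the circle in all 8 genes.

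Differences from the wild-type MEFs varied along Dicer1 and Hif1a. In Dicer1 the first exon had 1 read in wild-type MEFs, 16 in Dox (-) and 22 in Dox (+), while the exon before the last had 58.5, 62.3 and 56.5 RPKM. In Hif1a the ratio of Dox (+) to wild-type MEFs was 0.842 on the outermost first exon, with 14 and 17 reads, reached its highest value of 1.96 on the exon from 73928214 to 73928298 and was 0.732 on the last exon. Over all exons, Dicer1 was 1.36-fold higher in Dox (+) than in wild-type MEFs, whereas its highest exon gave 0.982 and its last exon 1.03 (0.951 to 1.12). A comparison of these 2 genes with the wild-type MEFs thus depended on which exons were read, and their differences from it are given only as values. This was not particular to these 2 genes. For Dox (+) over wild-type MEFs, the log2 step at the last exon had a median of 0.399 over 9509 genes. It was above 0 in 85.7% of them. The step was 0.834 for Hif1a, 0.635 for Diaph1, 0.477 for Dicer1, 0.392 for Cdk2 and 0.295 for Apex1. For Dox (-) over wild-type MEFs the median was 0.158, and Dicer1 had -0.254, with 9.56% of genes below it. Hif1a, Diaph1, Cdk2 and Apex1 had 0.589, 0.261, 0.149 and 0.049 there.

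**Figure D3:**
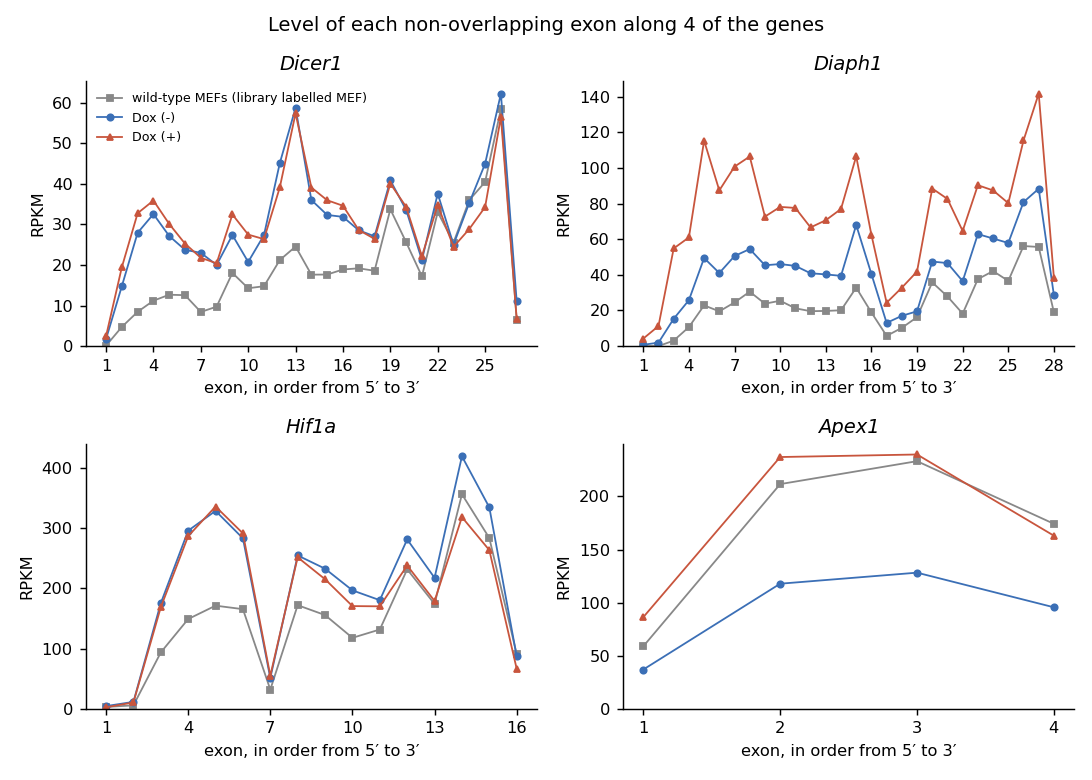
Level (RPKM) of each non-overlapping exon, in order from the 5′ to the 3′ end, for Dicer1, Diaph1, Hif1a and Apex1 in the 3 libraries, 1 point per exon. In Dicer1 and Hif1a wild-type MEFs (grey) lie below both knock-in libraries over most of the 5′ part and come closer to them toward the 3′ end. On the last exon they are the highest library in Hif1a, while in Dicer1 they lie close to Dox (+) and below Dox (-). In Diaph1 the order of the libraries holds along the gene, and in Apex1 Dox (-) (blue) is lowest on all 4 exons.

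**Figure D4:**
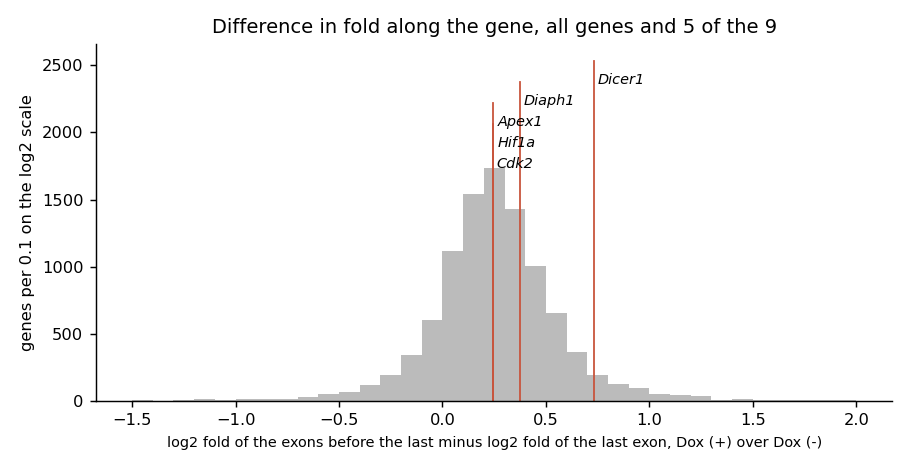
Number of genes, in steps of 0.1, by the log2 ratio of Dox (+) to Dox (-) on exons before the last minus that on the last exon, drawn from -1.5 to 2, with red lines at 5 of the 9 genes. The distribution peaks near its median of 0.247, where Cdk2, Hif1a and Apex1 lie, and Dicer1 at 0.731 is in its right tail.

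The genes that work with the 9 were read from lists set by function, each of which includes the gene it is built around, and these counts are given for Dox (+) against Dox (-). Of the 9 genes of the HIF pathway, all were above 10 RPKM and 1 passed the threshold, where 7.05% of all genes passed. A single gene in lists of this size is near that share, which covers both directions, 1.64% higher and 5.41% lower. The genes below are described for themselves. The gene was Egln3, which encodes a prolyl hydroxylase that marks HIF-1α for degradation and is itself induced by HIF. Its highest exon had 16.2 RPKM in wild-type MEFs, 12.6 RPKM in Dox (-) and 149.9 RPKM in Dox (+), and its reads rose 10.5-fold (9.68 to 11.5) from Dox (-) to Dox (+). Egln1, which encodes the main enzyme of this kind, had 223, 163.7 and 411 RPKM and was 2.68-fold higher in reads (2.53 to 2.84). Arnt, the partner of HIF-1α, had 285, 402 and 388 RPKM. Hif1a RNA was thus slightly lower in the library in which Egln3 was higher.

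Among 14 genes of the BCL2 family, 10 were above 10 RPKM and 1 passed the threshold, beside 7.05% of all genes. Bok, which encodes a pro-apoptotic member, rose from 19.5 RPKM in Dox (-) to 97.0 RPKM in Dox (+), with 19.4 RPKM in wild-type MEFs, or 8.07-fold in reads (6.71 to 9.77). The most abundant members, Bax with 989, 983 and 1056 RPKM in wild-type MEFs, Dox (-) and Dox (+), and Mcl1 with 469.9, 397 and 489 RPKM, did not pass. Bak1 had 181, 195 and 296 RPKM.

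Of the 12 inhibitors of apoptosis and caspases, 11 were above 10 RPKM and 1 passed, beside 7.05% of all genes. Birc5, which encodes survivin, a protein of the same family as livin that is needed in mitosis, fell from 76.5 RPKM in Dox (-) to 10.4 RPKM in Dox (+), against 162 RPKM in wild-type MEFs, or 7.50-fold in reads. Diablo and Htra2, which encode antagonists of these inhibitors, had 85.2 and 205 RPKM in Dox (-) and 173 and 387 RPKM in Dox (+).

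Of the 13 genes that encode CDK2 and its partners, all were above 10 RPKM and 1 passed, beside 7.05% of all genes. Ccna2, the cyclin A gene, fell from 74.6 RPKM in Dox (-) to 13.4 RPKM in Dox (+), against 126.5 RPKM in wild-type MEFs, or 8.09-fold in reads. Cdk2 itself differed by 1.14-fold in the same libraries. Cks1b had 208.5 RPKM in wild-type MEFs, 150 RPKM in Dox (-) and 132 RPKM in Dox (+).

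In 3 further lists 0 genes passed the 4-fold threshold. Their medians below stand beside 0.226 for all genes. Of 10 genes of microRNA biogenesis, 9 were above 10 RPKM, with a median log2 fold change of 0.571, and Xpo5, which encodes the exporter of the hairpin precursors, was 1.67-fold higher in Dox (+), and Tarbp2 1.40-fold higher in reads. Ago3 was 1.21-fold lower in reads over all exons, while its highest exon went the other way, at 122 RPKM without and 204.5 RPKM with Dox. The PGC-1 pathway had 8 of 10 genes above 10 RPKM and a median of 0.252, with Nrf1, a regulator of mitochondrial genes, at 1.67-fold, Tfam at 1.23-fold and Pprc1 at 0.991-fold. Base excision repair had 12 of 15 genes above 10 RPKM, of which 8 were higher and 4 lower, and a median of 0.167. In reads Apex1 was 1.86-fold, Xrcc1 1.65-fold and Polb 1.22-fold higher, and Parp1 had a ratio of 0.882.

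A further 20 genes reported elsewhere as MITF targets were read as a list. Of these, 19 were above 10 RPKM, 1 passed as higher and 2 as lower, beside 1.64% and 5.41% of all genes, and the median log2 fold change was 0.0404, under the 0.226 of all genes. Rragd, which encodes a GTPase that carries nutrient signals to mTORC1 at the lysosome, rose from 7.15 RPKM in Dox (-) to 46.1 RPKM in Dox (+), with 3.88 RPKM in wild-type MEFs, or 4.92-fold in reads (4.57 to 5.30). Bcl2a1b fell from 64.4 to 2.86 RPKM and Bcl2a1a from 10.2 to 0.206 RPKM. These 2 are near-identical copies among which reads may have been split, and they were high in the Dox (-) library, in which the macrophage markers were high. Bcl2a1d, another copy in the list, did not pass. It had 18.9 RPKM in wild-type MEFs, where the macrophage markers were low, 21.5 RPKM in Dox (-) and 6.40 RPKM in Dox (+). Among those that did not pass, the 3 with the highest level in any library, Asah1, Cdkn1a and Scd2, had ratios of 1.00, 1.38 and 0.61 in reads. Gpnmb, which exceeded Scd2 in Dox (+), was at 521.5 RPKM without Dox and 662 RPKM with it.

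**Figure D5:**
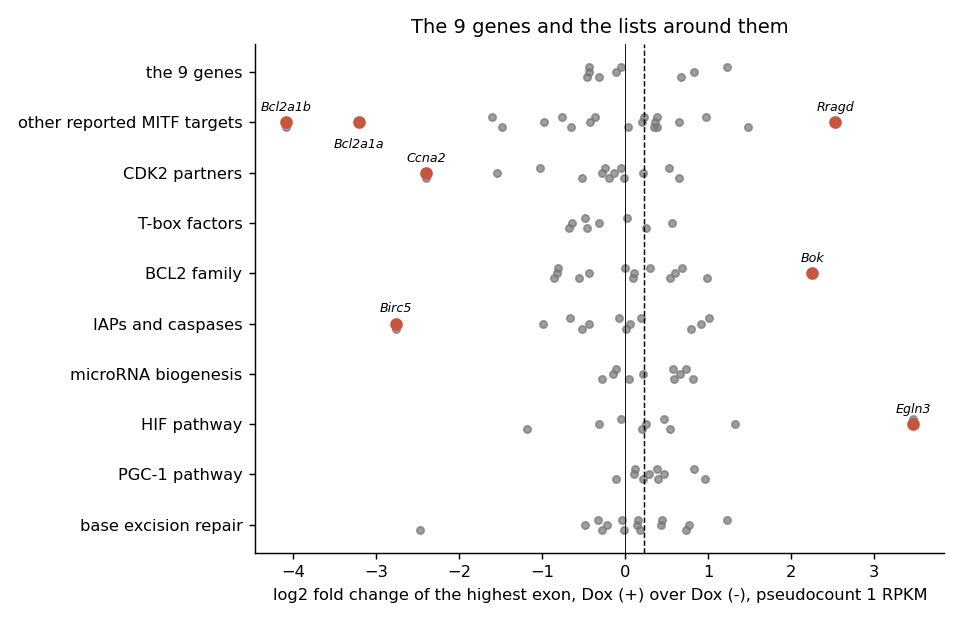
Log2 fold change of the highest exon, Dox (+) over Dox (-) with 1 RPKM added, for the 9 genes and for 9 lists around them, 1 point per gene, genes under 10 RPKM included. Of the 9 genes, 8 also appear in the list built around them. Red points are the 7 genes named that passed the 4-fold threshold, none of them among the 9, and the dashed line is the median of all genes above 10 RPKM, 0.226.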

How the data were processed

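RNA was sequenced from 4 conditions, 1 library each. Per the labels and the methods, the authors selected poly(A) RNA, aligned reads to mm10 with TopHat2 2.0.10, counted them on Ensembl exons with bedtools and deposited RPKM per exon. Strand-specific counting is not stated. Columns were assigned by name, 1 value column fitted no sample's labels and was not used, and PMel was not analysed here. The assignment of the column labelled MEF to the wild-type MEFs rests on that name alone, and the MEF column of the study's supplementary table holds other numbers.

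Exons were assigned to genes with GENCODE M21 (6586 of 234718 had no match). Reads were recovered as RPKM times exon length times a whole-number divisor per library, searched between 20 and 80 in the units of the RPKM scale, and 96.5% to 96.6% of low values were whole within 0.02. Pooled reads used a non-overlapping set of exons, longest first. Intervals are exact (Clopper-Pearson) at 95%, and the floor is 3 reads. Log2 fold changes were taken after adding 1 RPKM, which understates changes of low genes.

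The 9 genes and all lists were chosen with earlier results of these data known. By rule, all 9 genes are named, and of each list the genes that passed the threshold between Dox (+) and Dox (-) and up to 3 of the most abundant others. Parp1, Gpnmb and Bcl2a1d were named after their values were seen. Tbx3, Cdkn1a and Egln1 come under this rule. The list around Diaph1 is not reported here. Alternatives changed the exon choice, the thresholds, the pseudocount and the scaling. The split at the last exon was an addition made with the values in view. Scripts were checked on simulated reads. Python 3.11.15, pandas 2.3.3, NumPy 2.4.6, SciPy 1.17.1 and matplotlib 3.10.9 were used.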

Additional observations from a re-analysis of the deposited data

How the results depend on the processing

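With 1 library per condition, no alternative could leave out a library. No paired analysis was possible because each condition had 1 library and the labels carry no replicate numbers. The number of the 9 genes past the threshold was 0 for Dox (+) over Dox (-) under each alternative except the 2-fold threshold, which gave 1 (Apex1). Against wild-type MEFs, Tbx2 no longer passed with reads pooled over exons, with the median exon, with the exons before the last or with the last exon, which left 0 genes in both comparisons, since its level is then under 10 RPKM. Rescaling also left 0 for Dox (+) over wild-type MEFs, where a 2-fold threshold gave 2 (Tbx2 and Diaph1) and a limit of 1 RPKM gave 2 (Tbx2 and Ppargc1a). The median log2 fold change of the 9 genes in Dox (+) over Dox (-) was -0.179 with pooled reads, -0.053 without exons shared with other genes, -0.374 after rescaling, 0.012 on exons before the last and -0.315 on last exons. For Dox (+) over wild-type MEFs (0.316) it was 0.561 without shared exons, 0.487 with the median exon, 0.144 after rescaling, 0.138 with a pseudocount of 5, 0.501 on exons before the last and 0.04 on last exons. For Dox (-) over wild-type MEFs (0.379) it ranged from 0.229 with a pseudocount of 5 to 0.652 with a pseudocount of 0.1, and was 0.575 with the median exon. These moves are within the counting error of the median gene, Birc7, which is wide at 3 and 14 reads. Of 243 recomputed values of single genes, 16 had the other sign, 11 of them in Dox (+) over wild-type MEFs, and 0 of these belonged to Cdk2, Tbx2, Diaph1 or Ppargc1a. The causes were not tested.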
